A study of Mus musculus with 24 samples.

Results

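Adult mouse sensory neurons in culture were compared at the end and at the start of a 36 h course: 3 libraries collected 36 h after plating against 3 collected 6 h after plating, 6 of the 24 libraries of the series, over every gene of the table. The libraries were chosen by the time after plating in the sample labels. Lumbar dorsal root ganglia, the clusters of sensory neuron cell bodies beside the spinal cord, were taken from adult mice, dissociated, plated sparsely in laminin-coated dishes and kept in a neuron medium (Neurobasal-A with B-27). The 36 h and the 6 h libraries shared all of these steps and differed in the time in the dish, so axons had been severed and cells dissociated in both groups. The labels name the material as DRG neuron, state that cells were sorted before lysis without naming a marker, and give neither strain, sex nor the animals behind each library. P-values therefore measure the spread between libraries, which may be technical.

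The other 18 libraries, 3 in each group, hold the same cultures at 12 h and 24 h, adult L4-5 ganglia with a peripheral lesion, adult L4-5 ganglia with a sham operation, and ganglia of embryos (E12.5 or E17.5). The 12 h and 24 h cultures are used below to estimate the spread and to show the course, and the lesion and sham ganglia to set the change in the dish beside the change after injury in the animal. The 36 h libraries held 10338448, 7078402 and 12257636 reads in genes, and the 6 h libraries 17771785, 22545932 and 3648071. Values are normalized read counts as deposited, in which 1 read was worth 1.08, 1.55 and 0.923 at 36 h, against 0.726, 0.550 and 3.53 at 6 h. Low values in 6 h replicate 3 therefore rest on few reads, and the number of libraries limits the precision of every comparison.

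Sensory neurons of the ganglia carry touch, position, heat, itch and pain from the body to the spinal cord. Each class is marked by its own receptors and ion channels, and its resting state includes synaptic release proteins and a large axonal skeleton. When a peripheral axon is cut, the cell body is known to lower many of these genes and to raise a regeneration programme that includes the transcription factor gene Atf3, Sprr1a, galanin and cytoskeletal genes. Dissociation cuts every axon of the cell, and cultured sensory neurons are known to raise many of the same genes.

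Of 20782 genes in the table, 15006 reached a normalized read count of at least 10 in at least 3 of the 12 culture libraries and were tested. Between 36 h and 6 h, 7589 genes (50.6% of those tested) differed at a Benjamini-Hochberg adjusted p below 0.05 in limma on log2(value + 1). The calls were balanced: 3794 genes (25.3%) were higher at 36 h and 3795 (25.3%) were lower, and the median difference over all genes tested was 0.02 on the log2 scale. Differences below are log2 of the 36 h over the 6 h value with their standard error, and "rose" and "fell" are used of genes past that threshold. A rise or fall of at least 1 log2 was seen in 1854 and 1824 called genes, of at least 2 log2 in 464 and 590, and of at least 3 log2 in 101 and 196. Falls were thus the more numerous among the largest changes. The 3 libraries at 36 h lay wholly above those at 6 h for 4470 genes (29.8%) and wholly below for 4380 (29.2%).

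**Figure D1:**
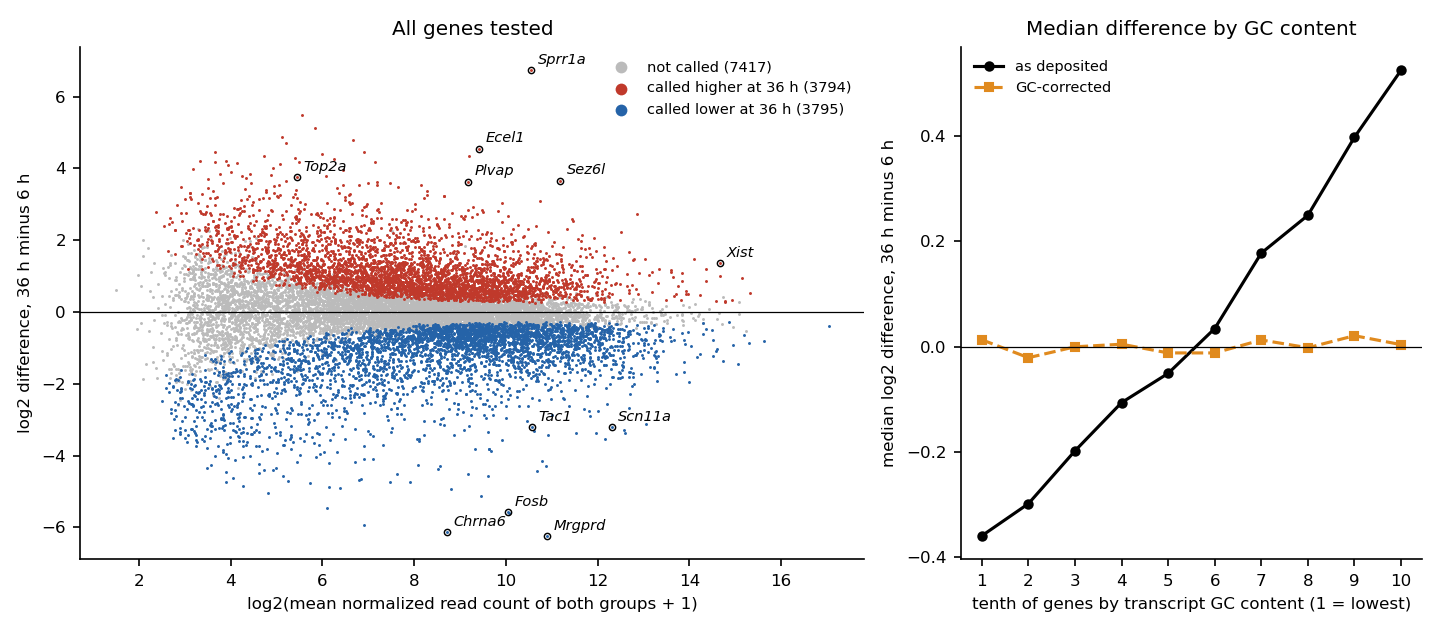
Left, each point is 1 tested gene, with its mean normalized read count at 36 h and 6 h on a log2 axis across and its log2 difference, 36 h minus 6 h, upwards. Red genes are called higher and blue genes lower, and the extremes are Sprr1a at 6.73 and Mrgprd at -6.23. Right, the median log2 difference in 10 bins of genes by transcript GC content, from -0.36 in the lowest to 0.53 in the highest bin as deposited, and near 0 in every bin after GC correction.

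The difference followed the GC content of the transcripts. When genes were split into 10 bins by GC content, in the lowest bin the median difference was -0.36, with 9.9% called higher and 37.9% lower, and in the highest bin it was 0.53, with 42.8% higher and 8.36% lower. Deviations of the libraries from the mean of all 12 correlated with GC content across genes at 0.134, 0.368 and 0.374 at 36 h, against -0.231, -0.0285 and -0.395 at 6 h (Spearman's rho, a description across genes). GC content thus moved with the groups, and its part in single results was not tested. A loess correction for GC content, chosen after seeing the data, called 7908 of 14234 genes (3858 higher and 4050 lower). It shared 6305 calls with the same direction, 83.1% of the calls above, and 0 with the opposite direction. Where it ended the call of a named gene, that is said beside the gene.

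The gene with the largest rise was Sprr1a, which encodes a small proline-rich protein of cornified epithelia and is raised in axotomized neurons. Its normalized read count was 2699, 2804 and 3433 at 36 h, against 45.7, 29.7 and 14.1 at 6 h. All 36 h libraries stood far above all 6 h libraries, and the difference was 6.73 ± 0.28 (adjusted p = 1.72e-10). The largest fall was that of Mrgprd, the Mas-related receptor that marks non-peptidergic skin nociceptors, with 52.8, 62.0 and 35.1 at 36 h, against 4377, 3748 and 3169.9 at 6 h. Every 6 h library lay above every 36 h library, with a difference of -6.23 ± 0.19 (adjusted p = 1.81e-11). Both genes were picked from those whose groups did not overlap, so their separation was part of the choice.

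The proximal promoters of these genes are shown because many activity- and injury-responsive genes carry AP-1 sites, which bind Fos and Jun proteins, or cAMP response elements (CRE), which bind CREB and ATF proteins. Each sequence gives the 250 bases before the RefSeq start (GRCm38.p6), written 5′ to 3′ on the strand of the gene, with matches to AP-1 and CRE in capitals. Sst, the somatostatin gene, and Ppp1r15a, the stress-induced phosphatase subunit GADD34, are added as genes that fell and have a CRE match. Dtl, Fscn1 and Ucn, named below, rose and have a CRE match too, and their windows are not shown.
Sprr1a, chr3:92485882-92486131, minus strand: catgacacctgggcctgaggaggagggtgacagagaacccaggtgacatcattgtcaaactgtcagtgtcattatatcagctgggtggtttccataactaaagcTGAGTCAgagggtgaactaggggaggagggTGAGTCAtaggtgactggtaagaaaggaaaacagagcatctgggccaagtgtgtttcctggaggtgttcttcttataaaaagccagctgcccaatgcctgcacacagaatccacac
Mrgprd, chr7:145314585-145314834, plus strand: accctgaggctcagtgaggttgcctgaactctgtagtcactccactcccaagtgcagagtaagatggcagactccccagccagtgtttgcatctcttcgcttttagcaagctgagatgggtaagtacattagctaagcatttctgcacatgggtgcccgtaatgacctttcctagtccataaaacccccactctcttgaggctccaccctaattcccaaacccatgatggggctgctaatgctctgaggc
Sst, chr16:23890845-23891094, minus strand: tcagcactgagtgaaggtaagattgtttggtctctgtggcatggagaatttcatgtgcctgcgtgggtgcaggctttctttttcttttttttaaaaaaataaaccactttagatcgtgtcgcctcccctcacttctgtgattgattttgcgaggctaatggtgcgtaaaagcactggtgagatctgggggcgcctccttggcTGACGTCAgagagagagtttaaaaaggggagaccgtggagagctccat
Ppp1r15a, chr7:45526269-45526518, minus strand: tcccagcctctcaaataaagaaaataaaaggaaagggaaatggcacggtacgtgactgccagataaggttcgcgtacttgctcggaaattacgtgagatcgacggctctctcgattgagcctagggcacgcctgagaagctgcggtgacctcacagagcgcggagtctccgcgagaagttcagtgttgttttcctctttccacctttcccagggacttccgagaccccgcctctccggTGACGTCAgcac
Sprr1a had 2 AP-1 matches, beginning 146 and 116 bases before the start, and no CRE match. The Mrgprd window had neither, Sst had a CRE match 48 bases and Ppp1r15a 12 bases before the start.

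A RefSeq promoter window was found for 11090 of the tested genes (73.9%), and a gene was counted once when any of its windows matched on either strand. The full CRE, TGACGTCA, was present for 2.04% of the genes that rose, 4.35% of those that fell and 3.01% of all tested genes. Its core, TGACGT, which the full CRE contains, was present for 9.44%, 12.2% and 11% of the same sets. The AP-1 motif, TGANTCA, was present for 6.61% of rises, 6.49% of falls and 5.81% of all. Shares for the other motifs lay close together: the STAT motif TTCNNNGAA in 7.47% of rises, 7.24% of falls and 7.35% of all, the hypoxia motif ACGTG in 23.9%, 24.3% and 24.3%, and the antioxidant motif TGACNNNGC, which can overlap AP-1, in 13.5%, 13.8% and 14%. Few genes held the sterol motif TCACNCCAC (1.14%, 0.999% and 1.28%), the E2F motifs TTTGGCGC or TTTCGCGC (1.5%, 1.25% and 1.42%) or the amino acid response motif TTGCATCA (0.5%, 0.82% and 0.703%). The heat shock element was present in 0.357%, 0.428% and 0.451%, and the serum response element in 1 gene that rose, 1 that fell and 3 of all. Median GC content of the windows was 60% for rises, 59.2% for falls and 59.6% for all tested genes. These shares are a description and were not tested.

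Beyond Sprr1a, the largest rises among genes with a mean of at least 100 at 36 h or 6 h included those of Ecel1, Hmga2, Sez6l and Cckbr. Ecel1, the damage-induced neuronal endopeptidase, had 968, 1475 and 1514 at 36 h, against 47.9, 59.4 and 56.4 at 6 h. Hmga2, a chromatin protein of embryonic cells, had 1088, 1245 and 1002 at 36 h, against 49.4, 46.2 and 67.0 at 6 h. The differences were 4.55 ± 0.22 for Ecel1 (adjusted p = 7.48e-10) and 4.35 ± 0.17 for Hmga2 (adjusted p = 9.49e-11). Sez6l, a transmembrane protein of neurons, had 4150.3, 4536 and 4303 at 36 h, against 308, 415 and 310.3 at 6 h, a difference of 3.66 ± 0.16. Cckbr, a receptor for cholecystokinin and gastrin, had 343, 326 and 314 at 36 h, against 24.0, 31.3 and 24.7 at 6 h (3.58 ± 0.18). Qrfpr, the receptor of the peptide QRFP, rose by 4.45 and the membrane serine protease gene Tmprss5 by 4.80. No 6 h library reached a 36 h library in any of these, a separation that the choice of the largest rises required.

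Among the same top rises, Itgb4, the integrin subunit of hemidesmosomes, had 257, 301 and 241 at 36 h, against 36.3, 31.9 and 7.05 at 6 h, and the desmosomal gene Dsp had 103, 174 and 154 at 36 h, against 82.8, 8.25 and 0 at 6 h. The 6 h values of Dsp ranged from 0 to 82.8, its difference was 3.95 ± 1.19 (adjusted p = 0.0148), and the call was lost in a fit to the 6 libraries alone (adjusted p = 0.13) and in DESeq2 (adjusted p = 0.0925). Ereg, encoding the EGF receptor ligand epiregulin, rose by 3.80 ± 0.57, and Lrg1, encoding a secreted leucine-rich glycoprotein, by 4.27 ± 0.48. Plvap, a protein of endothelial fenestrae, had 1084, 1171 and 951 at 36 h, against 74.1, 102 and 81.1 at 6 h (3.63 ± 0.25). Genes of DNA replication and division among these rises were Uhrf1, a reader of hemimethylated DNA, which rose by 4.19 ± 0.31, Dtl, a ubiquitin ligase subunit acting in replication, by 4.39 ± 0.34, and the spindle gene Psrc1, by 5.13 ± 0.53. Psrc1 and Dtl were low at 6 h, with at most 5.08 and 6.53.

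The largest falls included those of receptors of nociceptor and itch neurons. Chrna6, a nicotinic acetylcholine receptor subunit, had 9.70, 10.9 and 12.0 at 36 h, against 974, 770.1 and 740.5 at 6 h. The 36 h values did not exceed 12.0, a difference of -6.12 ± 0.20 (adjusted p = 2.08e-11). The itch receptor gene Mrgpra3 had 2.16, 7.75 and 0 at 36 h, against 139, 123 and 138 at 6 h, and the related Mrgpra2b and Mrgprx1 fell too (-5.94 for Mrgpra2b and -4.87 for Mrgprx1). Mrgpra3, Mrgpra2b and Mrgprx1 have close copies in their gene family, so that reads may be split between copies and their single values are uncertain. Lpar3, a receptor for lysophosphatidic acid, had 61.4, 24.8 and 36.0 at 36 h, against 1594, 1269 and 1234 at 6 h (-5.12 ± 0.25), and Cacna1i, a low-voltage-activated calcium channel, had 4.31, 9.30 and 1.85 at 36 h, against 169, 180.3 and 134 at 6 h (-4.90 ± 0.39). Fosb, a Fos family transcription factor, had 40.96, 57.4 and 33.2 at 36 h, against 1947, 2201 and 2102 at 6 h, with all 6 h libraries close to one another and a difference of -5.57 ± 0.23 (adjusted p = 1.46e-10). The other large falls were those of Ctxn3, Rgs8, Gadl1, Galnt5, Fam196b, Tmem233 and Car8, between -4.51 for Car8, a carbonic anhydrase-related protein, and -5.60 for Ctxn3, a cortexin. Rgs8, a regulator of G-protein signalling, fell (-4.94). Genes whose groups overlapped had been left out of this choice of the largest falls.

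In normalized read count, the largest gains were those of abundant transcripts. Xist, the noncoding RNA of the inactive X chromosome, had 41341, 39237 and 33104 at 36 h, against 14809, 14481 and 14471 at 6 h (1.37 ± 0.13), and Malat1, a nuclear noncoding RNA, had 46344, 46386 and 51409 at 36 h, against 23802, 26511 and 24749 at 6 h (0.94 ± 0.12). Both nuclear RNAs were higher in every 36 h library, which the choice of the largest gains required. Tuba1a, the alpha-tubulin of growing neurons, had 35981, 32136 and 36728 at 36 h, against 18019.9, 17088 and 17077 at 6 h (1.00 ± 0.13), Vim, the intermediate filament vimentin, 28068, 29626 and 30843 at 36 h, against 12987, 12114 and 13776 at 6 h (1.19 ± 0.11), and Plec, the filament linker plectin, 19008, 31014 and 27539.9 at 36 h, against 8229.8, 11377 and 7919.5 at 6 h (1.48 ± 0.28). Scd2, a fatty acid desaturase, rose by 0.52 ± 0.10. The largest losses included those of Map1b, Nefm, Fstl1, Prune2 and Reep5. Nefm, a neurofilament subunit, had 29312, 38962 and 43275 at 36 h, against 55822, 66344 and 71939 at 6 h (-0.81 ± 0.20). Map1b, a microtubule protein of growing axons, fell (-0.38 ± 0.15, adjusted p = 0.0477), a call lost under 9 alternatives, among them GC correction (adjusted p = 0.105) and the fits without 6 h replicate 2 or 3 (both 0.123) or 36 h replicate 1 or 2 (0.17 and 0.102).

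**Figure D2:**
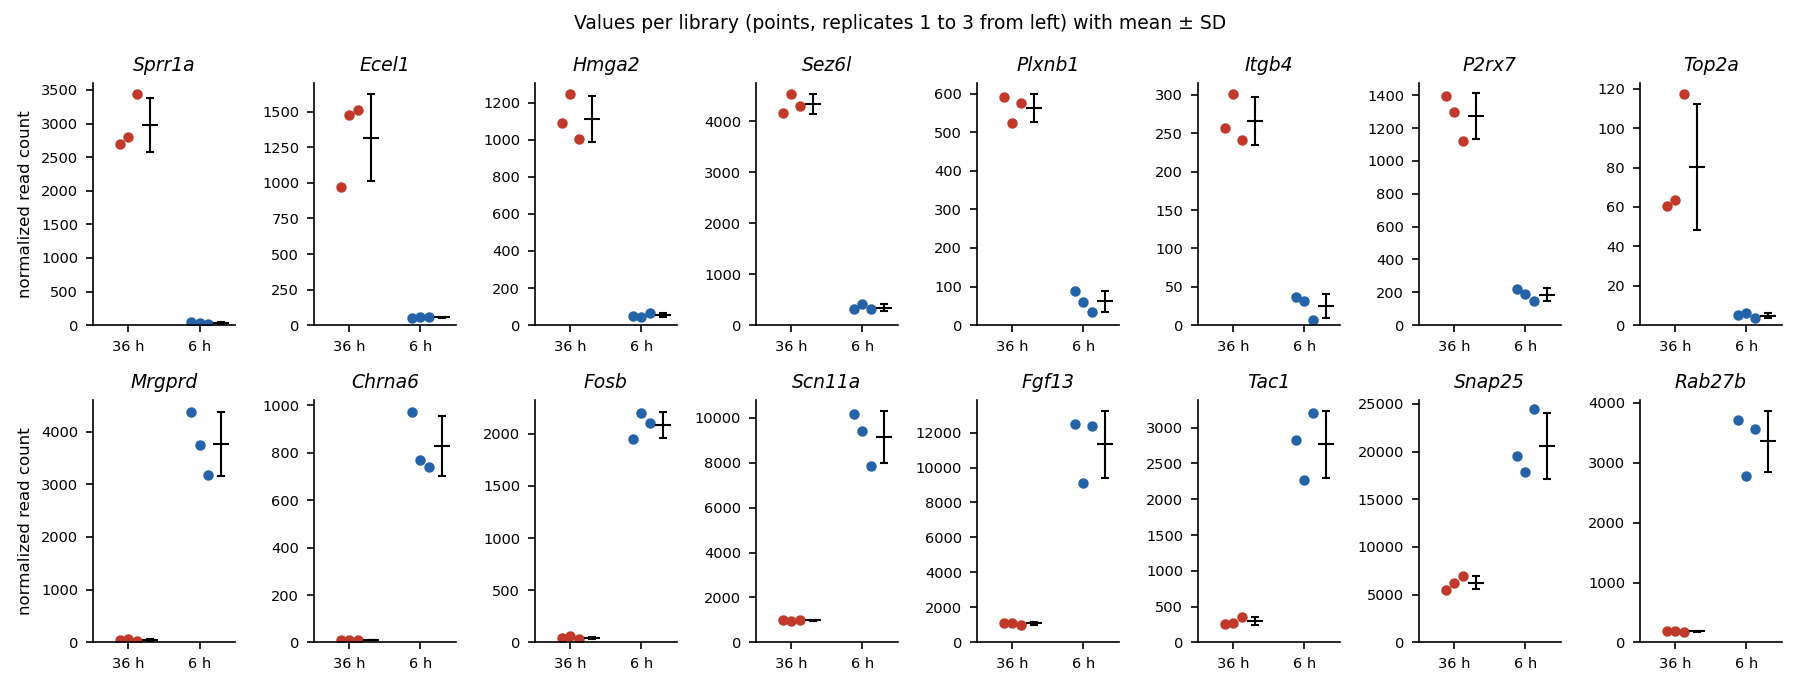
Normalized read count of 16 genes in each library (points, 36 h in red and 6 h in blue) with the mean ± SD of the 3 libraries beside them. Each axis is linear and starts at 0, and the upper row shows genes that rose, such as Sprr1a at 2699 to 3433 at 36 h against 14.1 to 45.7 at 6 h, and the lower row genes that fell.

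Markers of cells other than neurons were detected at both times, although the labels name the material as neurons. Counts of all marker lists, those of neurons included, stand beside 25.3% of all tested genes called in each direction. Endothelial markers rose for 15 of 16 genes, against 25.3% of all tested genes, with a median difference of 1.17 and a summed normalized read count of 7653 to 10081 at 36 h, against 3667 to 4528 at 6 h. Macrophage markers rose for 9 and fell for 1 of 14 genes, with 3 falls after GC correction and 2 without 6 h replicate 3 (1263 to 1660.1 at 36 h, against 635 to 729.7 at 6 h). Repair and immature Schwann cell markers rose for 9 and fell for 1 of 13, with 3 falls after GC correction. The largest rise of that list was in Artn, described below among the trophic factors, followed by Erbb3, the neuregulin receptor, with 776, 626 and 787 at 36 h, against 66.1, 83.0 and 81.1 at 6 h (3.23 ± 0.17). S100b, a further marker of that list, fell (-1.46), and the summed level of the list overlapped (30091 to 32121 at 36 h, against 28794 to 32375 at 6 h). Satellite glia markers rose for 8 and fell for 5 of 16, with 3 falls without 6 h replicate 3 or 36 h replicate 1 (65805 to 68312 at 36 h, against 50411 to 55928 at 6 h), with Kcnj10, the potassium channel of these cells, at 1017, 857 and 1056 at 36 h, against 274, 226 and 183 at 6 h and Fabp7 at 74.4, 43.4 and 64.6 at 36 h, against 209, 156 and 268 at 6 h.

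General neuron markers fell for 8 of 15 genes and rose for 1, with a median of -0.76 and a sum of 91986 to 118362 at 36 h, against 155581 to 175552 at 6 h. Snap25, a release protein, had 5530.2, 6277 and 6917 at 36 h, against 19488, 17814 and 24425 at 6 h (-1.71 ± 0.17), and Sncg, gamma-synuclein, 3133, 3531 and 3265 at 36 h, against 11549, 11275 and 9485 at 6 h (-1.70 ± 0.11). The 1 rise was Elavl3, an RNA-binding protein of neurons, by 0.28 ± 0.11 (adjusted p = 0.0369), which lost its call under 7 alternatives, among them GC correction (adjusted p = 0.693) and the fits without 6 h replicate 2 or 3 (0.083 and 0.103) or 36 h replicate 1 or 3 (0.0791 and 0.111). Fewer neurons and less RNA per neuron cannot be told apart in these libraries, and this holds for every neuronal list below. The part of cell composition in those lists was not tested.

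Pericyte and smooth muscle markers rose for 6 of 13 genes and fell for 0, with a median of 0.71, or 0.33 after GC correction (3326 to 3865 at 36 h, against 2132 to 2559 at 6 h), with Notch3 at 2.62. Fibroblast and matrix markers rose for 7 and fell for 1 of 18, with 5 falls after GC correction (17950 to 20903 at 36 h, against 16137 to 17199 at 6 h), with the matrix gene Postn, periostin, at 3356, 3025 and 3137 at 36 h, against 716, 535 and 825 at 6 h. Myelinating Schwann cell markers rose for 3 and fell for 4 of 16 (8 fell after GC correction). As deposited, their share of falls was near the 25.3% of all tested genes, and their sums overlapped (29784 to 35552 at 36 h, against 28089 to 37848 at 6 h). Sox10, the transcription factor of Schwann and satellite cells, rose by 1.26 ± 0.21, and the myelin gene Ncmap fell (-1.58). Blood cell markers were low: red blood cell markers fell for 6 of 8 genes, or 2 without 6 h replicate 1 (321 to 628.5 at 36 h, against 811 to 1159.5 at 6 h), with the haemoglobin gene Hbb-bs at 202, 49.6 and 45.2 at 36 h, against 408, 253 and 229 at 6 h. Lymphocyte and neutrophil markers fell for 3 of the 4 tested of 16 listed (51.2 to 76.6 at 36 h, against 139.6 to 229.2 at 6 h), and Cd3g and Elane were at 0 in all 6 libraries. Ngp, a neutrophil granule protein, had 3.23, 0 and 4.62 at 36 h, against 48.6, 15.9 and 63.5 at 6 h.

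**Figure D3:**
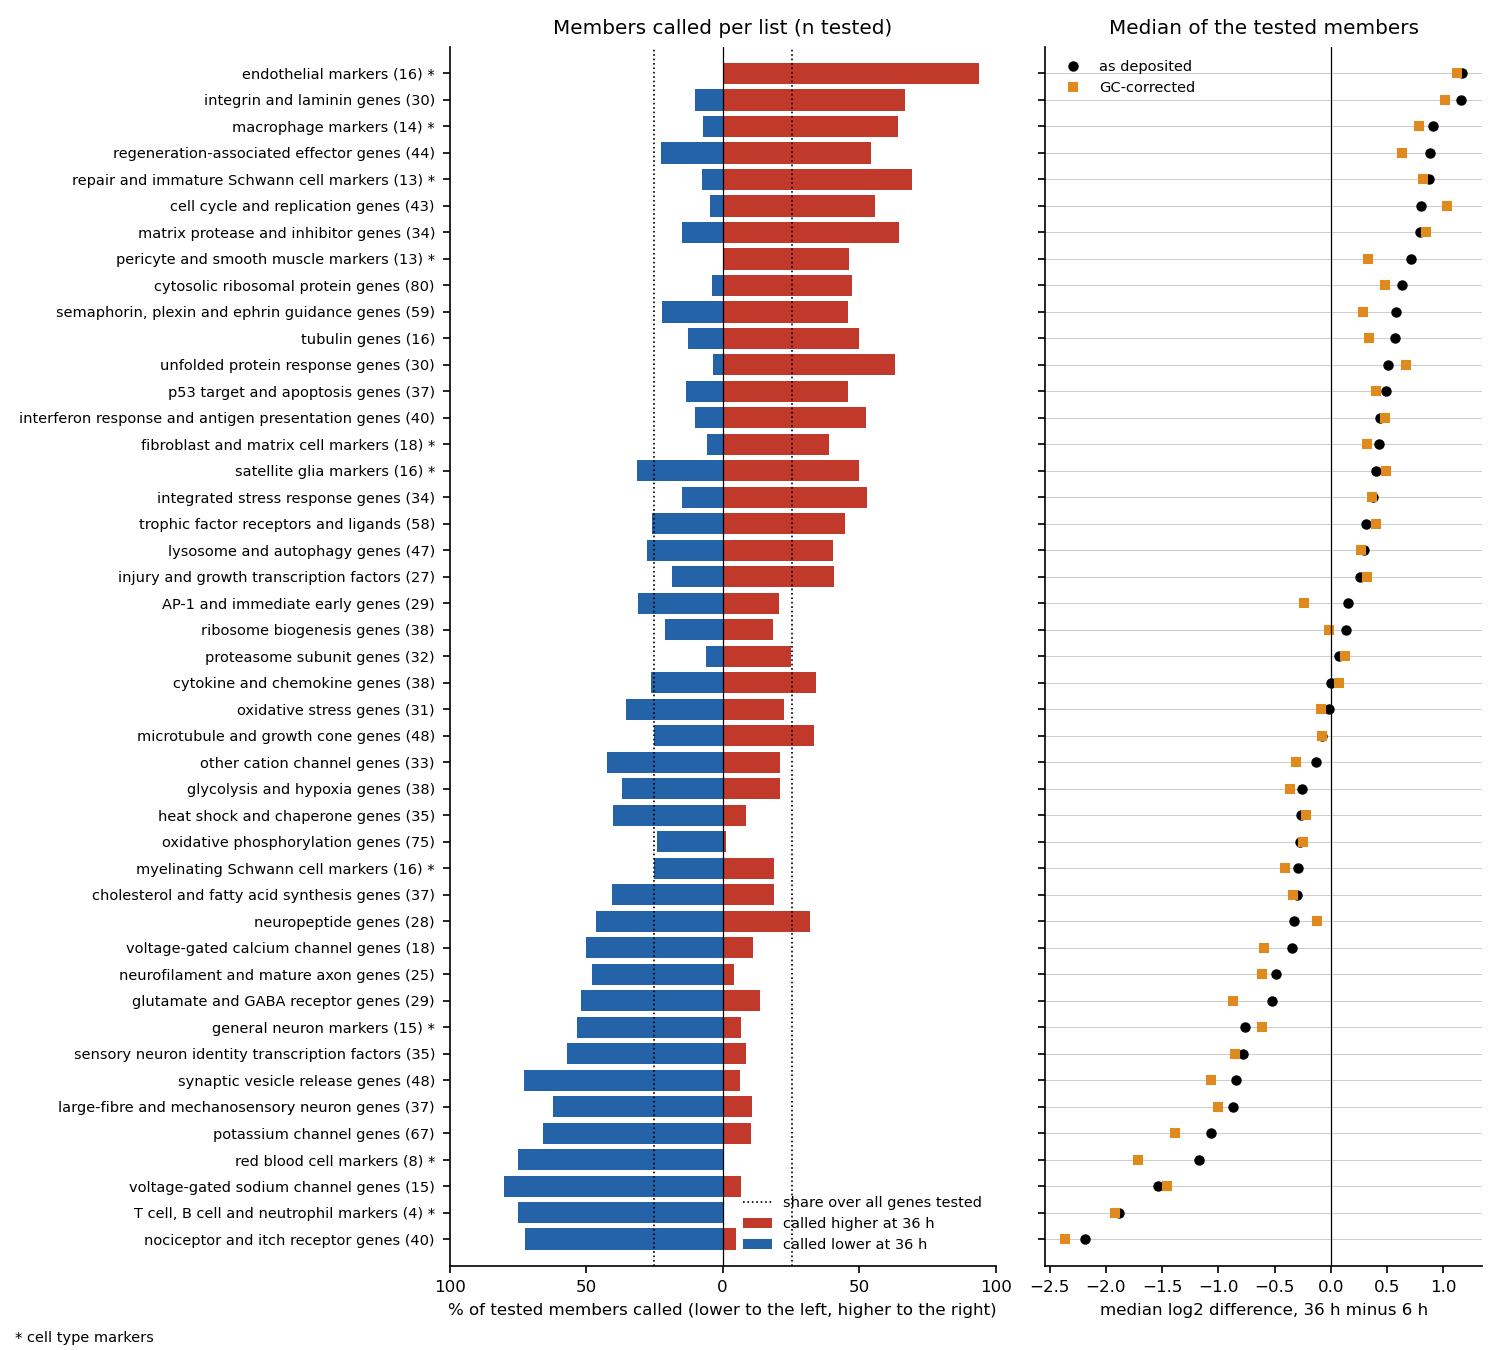
Left, the percentage of the tested members of each list called lower (blue, to the left) and higher (red, to the right) at 36 h, with the number tested in parentheses, asterisks at cell type marker lists and dotted lines at the 25.3% of all genes tested. Right, the median log2 difference, 36 h minus 6 h, as deposited (black) and after GC correction (orange). As deposited, nociceptor and itch receptor genes have the lowest median, -2.19, of the functional lists, and integrin and laminin genes the highest, 1.16.

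AP-1 and immediate early genes, which respond first to injury, were called in both directions between 6 h and 36 h. Of 29 tested, 6 rose and 9 fell, shares near those of all tested genes. Their median was 0.16, which became -0.24 after GC correction. Counts of this and all later lists stand beside 25.3% of all tested genes called in each direction. Besides Fosb, the orphan receptor gene Nr4a3 fell, with 4.31, 0 and 5.54 at 36 h, against 18.2, 33.0 and 38.8 at 6 h (-3.18 ± 0.74), whereas its relative Nr4a1 rose, with 570.3, 608 and 623 at 36 h, against 281, 270.5 and 190.4 at 6 h (1.30 ± 0.17). Junb rose by 1.13 ± 0.35 (adjusted p = 0.0137), with the first 36 h library at 577 and a highest 6 h library at 532, and lost its call after GC correction (adjusted p = 0.0517), without 6 h replicate 1 (0.0714) and without 36 h replicate 2 or 3 (0.0735 and 0.0552). Atf3 and Jun, chosen after their values were seen, did not pass the test: Atf3 averaged 8231 ± 518 at 36 h and 10153 ± 544 at 6 h (-0.30 ± 0.13, adjusted p = 0.0709) and Jun 8819 ± 1660.2 at 36 h and 6810.4 ± 699.9 at 6 h (0.36 ± 0.19, adjusted p = 0.121).

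Injury and growth transcription factors rose for 11 and fell for 5 of 27 genes, with a median of 0.26. Cebpd, a factor of acute inflammation, had 674, 1229.6 and 1298 at 36 h, against 162, 136 and 194 at 6 h (2.65 ± 0.25), and Rest, a repressor of neuronal genes, had 427, 492 and 441 at 36 h, against 247, 198 and 166 at 6 h (1.17 ± 0.15). Each 36 h library exceeded each 6 h library for both, and which cells carried these rises was not tested. Runx1, which specifies non-peptidergic nociceptors, had 989, 771 and 942 at 36 h, against 2835, 2238 and 2712 at 6 h (-1.53 ± 0.13), and Klf7, a Kruppel-like factor linked to axon growth, fell (-0.82 ± 0.16). Sox11, also named after its values were seen, averaged 3850.1 ± 136 at 36 h and 3244 ± 494 at 6 h and was not called (adjusted p = 0.152).

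Regeneration-associated effector genes rose more often than not: 24 of 44 rose and 10 fell, with a median of 0.88, or 0.63 after GC correction. Sprr1a and Ecel1 led the rises. Rab27b, a GTPase of vesicle release, led the falls with 188, 192 and 179 at 36 h, against 3717, 2782 and 3568 at 6 h (-4.15 ± 0.17), and Plau, the urokinase protease, had 108, 88.4 and 147 at 36 h, against 281, 261 and 226 at 6 h (-1.18 ± 0.19). The growth cone gene Gap43, named after its values were seen, averaged 3238 ± 62.2 at 36 h and 3666 ± 215 at 6 h and did not pass the test (adjusted p = 0.24).

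Cytoskeletal genes moved both ways. Tubulins rose for 8 and fell for 2 of 16, with a median of 0.58 (0.34 after GC correction), and because tubulin genes are close copies their single values are uncertain. Tubb6 had 1991, 2135 and 2329 at 36 h, against 574, 530.5 and 430.2 at 6 h (2.08 ± 0.17), while Tuba4a, a tubulin of mature neurons, had 734, 999 and 1143 at 36 h, against 1295, 1793 and 1696 at 6 h (-0.74 ± 0.23), a call lost without 36 h replicate 1 (adjusted p = 0.0691). Tuba8 rose by 1.61, and Tubg2 fell (-0.88 ± 0.29), a call lost without 6 h replicate 2 (adjusted p = 0.0789). Microtubule and growth cone genes rose for 16 and fell for 12 of 48 (15 and 19 after GC correction). As deposited, their share of falls was near the 25.3% of all tested genes. Fscn1, the filopodial actin bundler, had 951, 1023 and 1177 at 36 h, against 360.1, 339 and 310.3 at 6 h. The actin-binding profilin Pfn2 had 3070.2, 2897 and 2935 at 36 h, against 7465, 6940.0 and 8445 at 6 h. Dpysl4, a collapsin response mediator, rose by 1.71 ± 0.23, and Ablim1, an actin-binding LIM protein, fell (-1.19 ± 0.12).

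Neurofilament and mature axon genes fell for 12 and rose for 1 of 25, with a median of -0.49 (-0.27 without 36 h replicate 1). Fgf13, which binds sodium channels and microtubules, had 1128, 1107 and 1013 at 36 h, against 12495, 9125 and 12359 at 6 h (-3.37 ± 0.16). The 3 libraries at 36 h lay within 1013 to 1128, against 9125 in the lowest 6 h library. The 1 rise was Dync1h1, the dynein motor heavy chain, by 0.57 ± 0.16 (adjusted p = 0.00758).

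Genes of contact with the substrate rose more often than they fell. Integrin and laminin genes rose for 20 and fell for 3 of 30, with a median of 1.16 (1.02 after GC correction). Besides Itgb4, the laminin chain gene Lamb3 had 49.6, 72.9 and 81.2 at 36 h, against 2.90, 3.85 and 7.05 at 6 h (3.66 ± 0.48). Itga11, a collagen receptor subunit, fell (-2.13 ± 0.56) from low values. Endothelial cells and pericytes also make laminins and integrins. Their markers rose for 15 of 16 and 6 of 13 genes, as given above, and their part was not tested.

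Matrix proteases and their inhibitors rose for 22 and fell for 5 of 34, with a median of 0.79. Mmp12, macrophage elastase, had 61.4, 51.2 and 57.2 at 36 h, against 2.90, 12.1 and 3.53 at 6 h (3.23 ± 0.40), and Mmp11, stromelysin-3, had 115, 217 and 147 at 36 h, against 10.2, 17.0 and 28.2 at 6 h (3.11 ± 0.34). Both were low at 6 h. Macrophage markers rose for 9 and fell for 1 of 14 genes, as given above, and their part was not tested. Adam22, a synaptic and axonal ADAM protein without protease activity, had 1573, 1707 and 1880.4 at 36 h, against 4014, 4202 and 4785 at 6 h (-1.33 ± 0.15).

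Semaphorin, plexin and ephrin guidance genes rose for 27 and fell for 13 of 59, with a median of 0.58 that was 0.29 after GC correction. The semaphorin receptors Plxnb1 and Plxnb3 led the rises, with 591, 523 and 576 at 36 h, against 89.3, 60.5 and 35.3 at 6 h for Plxnb1 (3.26 ± 0.28) and 494, 634 and 480.0 at 36 h, against 54.5, 69.3 and 52.9 at 6 h for Plxnb3 (3.16 ± 0.18). A further plexin moved the other way: Plxnc1, a receptor for semaphorin 7A, had 1448, 1172 and 1434 at 36 h, against 5466, 4567 and 4972 at 6 h (-1.89 ± 0.12). The ephrin receptor Epha4 fell (-2.07 ± 0.31).

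Receptors that define nociceptor and itch neurons had the lowest median of the functional lists. Of 40 genes, 29 fell and 2 rose, against 25.3% of all tested genes in each direction, with a median of -2.19 (-2.36 after GC correction). The rises were Bdkrb2, the bradykinin receptor, with 221, 292 and 258 at 36 h, against 113, 128 and 42.3 at 6 h (1.58 ± 0.38), and Gfra3, the receptor subunit for artemin, with 628, 693 and 791 at 36 h, against 277, 301 and 264 at 6 h (1.32 ± 0.17). Trpv1, the heat and capsaicin receptor, had 109, 146 and 180.0 at 36 h, against 589.6, 645 and 571 at 6 h (-2.08 ± 0.18), whereas P2rx3, the ATP receptor subunit, averaged 9647 ± 1380.1 at 36 h and 8999 ± 1159 at 6 h and did not pass the test (adjusted p = 0.57). Trpv1 and P2rx3 were chosen after their values were seen. The fall of general neuron markers, with a median of -0.76, stands beside these values.

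Genes of large-fibre and mechanosensory neurons fell for 23 and rose for 4 of 37, with a median of -0.87. Spp1, osteopontin, rose, with 5712, 5564 and 5395 at 36 h, against 1313, 1365 and 2285 at 6 h (1.80 ± 0.18), and Cdh23, a cadherin of hair cell tip links, had 19.4, 24.8 and 31.4 at 36 h, against 2.90, 2.75 and 3.53 at 6 h (2.67 ± 0.47). Fam19a1, a secreted protein of sensory neurons, had 112, 118 and 118 at 36 h, against 505, 496 and 656 at 6 h (-2.23 ± 0.17). Necab2, a calcium-binding protein, fell (-2.22 ± 0.76, adjusted p = 0.0229), a call lost without 6 h replicate 1 or 2 (0.0746 and 0.0742) or 36 h replicate 3 (0.119).

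Transcription factors of sensory neuron identity fell for 20 and rose for 3 of 35, with a median of -0.78. The rises numbered 1 after GC correction and without 6 h replicate 1 or 36 h replicate 3. Hoxd1, a homeobox factor of nociceptors, had 15.1, 21.7 and 12.0 at 36 h, against 237, 229.8 and 197 at 6 h (-3.72 ± 0.26), and Prrxl1, known as Drg11, had 12.9, 10.9 and 19.4 at 36 h, against 39.9, 78.1 and 102 at 6 h (-2.21 ± 0.38). Both lay lower in every 36 h library. Cux1 rose by 0.99 ± 0.15, and Etv4, an ETS factor, by 1.31 ± 0.41 (adjusted p = 0.0139), a call lost after GC correction (adjusted p = 0.0728) and without 6 h replicate 1 (0.0512) or 36 h replicate 3 (0.0534).

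Most sodium and potassium channel genes fell. Voltage-gated sodium channel genes fell for 12 and rose for 1 of 15, with a median of -1.53. Scn11a, the Nav1.9 channel of nociceptors, had 1011, 952 and 997 at 36 h, against 10148, 9425 and 7859.6 at 6 h (-3.20 ± 0.11, adjusted p = 3.3e-11), and the auxiliary subunit Scn2b had 156, 110.1 and 168 at 36 h, against 943, 830.1 and 769 at 6 h (-2.56 ± 0.19). Scn10a and Scn9a, the Nav1.8 and Nav1.7 channels, were named after their values were seen and averaged 4203 ± 253 at 36 h and 16019 ± 1778 at 6 h for Scn10a and 4668 ± 498 at 36 h and 13521 ± 1473 at 6 h for Scn9a. The 1 rise, Scn2a1, was 0.45 ± 0.17 (adjusted p = 0.0394) and was lost without 6 h replicate 1 or 2 (0.0926 and 0.101) and without 36 h replicate 1, 2 or 3 (0.0984, 0.0762 and 0.0626).

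Potassium channel genes fell for 44 and rose for 7 of 67, with a median of -1.06. Kcnip1, a channel-interacting subunit, had 55.0, 29.5 and 18.5 at 36 h, against 323, 335 and 317 at 6 h (-3.34 ± 0.28), and the modifier subunit Kcnf1 fell (-3.39 ± 0.91, adjusted p = 0.00585), a call lost in a fit to the 6 libraries alone (adjusted p = 0.0996). Kcnn4, the intermediate-conductance calcium-activated channel, rose with 358, 422 and 508 at 36 h, against 124, 145 and 152 at 6 h (1.60 ± 0.20), as did the glial Kcnj10. Without 36 h replicate 3, the rises numbered 3.

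Voltage-gated calcium channel genes fell for 9 and rose for 2 of 18, with a median of -0.35 (-0.60 after GC correction). After Cacna1i, the largest fall was in the auxiliary subunit Cacnb4, with 1157, 1090.1 and 1204 at 36 h, against 5464, 4987 and 7147 at 6 h (-2.33 ± 0.16). The rises, Cacna1d by 0.77 ± 0.25 and Cacna1h by 0.63 ± 0.18, were both less than 1 log2. The call of Cacna1h was lost after GC correction (adjusted p = 0.392), and that of Cacna1d without 6 h replicate 3 (adjusted p = 0.0804) or 36 h replicate 3 (adjusted p = 0.0715). Of the other cation channels, 14 fell and 7 rose of 33, with a median of -0.13 (-0.31 after GC correction). Trpc6, a receptor-operated channel, had 17.2, 14.0 and 12.0 at 36 h, against 270.1, 245 and 261 at 6 h (-4.09 ± 0.23). P2rx7, the ATP receptor of macrophages and glia, rose with 1397, 1298 and 1123 at 36 h, against 222, 189.6 and 145 at 6 h (2.79 ± 0.15), and the mechanosensitive channel Piezo1 with 482, 597 and 461 at 36 h, against 149, 256 and 155 at 6 h (1.49 ± 0.23).

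Synaptic vesicle release genes fell for 35 and rose for 3 of 48, with a median of -0.85. GC correction gave 37 falls and 5 rises with a median of -1.06, and 1 gene rose without 6 h replicate 3 or 36 h replicate 1. Rab3c, a vesicle GTPase, had 2468, 2608 and 2899 at 36 h, against 10608, 10294 and 12257 at 6 h (-2.05 ± 0.14), and Snap25 is given above. Doc2b, a calcium sensor of release, rose by 1.13 ± 0.36 (adjusted p = 0.0172) and Stx1a, syntaxin 1A, by 0.58 ± 0.19 (adjusted p = 0.0194). Doc2b lost its call without 36 h replicate 2 (adjusted p = 0.0616) or 3 (adjusted p = 0.0541), and Stx1a after GC correction (adjusted p = 0.338) and without 6 h replicate 3 (adjusted p = 0.101) or 36 h replicate 1 (adjusted p = 0.056).

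Glutamate and GABA receptor genes fell for 15 and rose for 4 of 29 (2 rose without 6 h replicate 1), with a median of -0.53 (-0.87 after GC correction and -0.98 without 36 h replicate 3). The kainate receptor subunits diverged: Grik1 had 374, 298 and 329.5 at 36 h, against 3815, 3554 and 3329 at 6 h (-3.42 ± 0.12, adjusted p = 2.08e-11), and Grik3 had 2464, 2149 and 2335 at 36 h, against 777, 663 and 571 at 6 h (1.80 ± 0.15). Each was separated without overlap, in opposite directions. Gria3, an AMPA receptor subunit, rose by 1.36 ± 0.16, Grm5, a metabotropic receptor, fell (-2.70 ± 0.75) from values under 30, and Grin2b was at 0 in all 6 libraries.

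Neuropeptide genes moved both ways, with 9 rises and 13 falls among 28 and a median of -0.33 (-0.12 after GC correction and -0.54 without 36 h replicate 3). Tac1, the gene of substance P, had 261, 274 and 361 at 36 h, against 2822, 2273 and 3202 at 6 h (-3.21 ± 0.20), and Sst had 19.4, 1.55 and 18.5 at 36 h, against 61.0, 62.7 and 74.0 at 6 h (-2.73 ± 0.60). The peptides known to appear after axotomy included Npy, neuropeptide Y, with 9.70, 20.2 and 39.7 at 36 h, against 0, 0.550 and 0 at 6 h, and Ucn, urocortin, with 10.8, 37.2 and 22.2 at 36 h, against 0, 0 and 0 at 6 h. Both passed the test, and their 6 h values were at or near 0, so no fold is given. Galanin (Gal) and neurotensin (Nts), named after their values were seen, had 668, 518 and 875 at 36 h, against 92.9, 85.8 and 169 at 6 h for Gal (2.59 ± 0.26) and 1605, 954 and 1235 at 36 h, against 268, 207 and 328 at 6 h for Nts (2.23 ± 0.30), while Calca, the gene of calcitonin gene-related peptide, had 6001, 4793 and 6592 at 36 h, against 12889, 12617 and 14369 at 6 h (-1.21 ± 0.15).

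Trophic factors and their receptors rose for 26 and fell for 15 of 58, with a median of 0.32. Artn, artemin, the ligand of the Gfra3 receptor, had 52.8, 41.9 and 53.5 at 36 h, against 2.18, 3.85 and 0 at 6 h (4.33 ± 0.56). Ligand and receptor subunit thus rose together, from low values in the case of Artn. Fgf9, a fibroblast growth factor, had 33.4, 57.4 and 56.3 at 36 h, against 224, 287 and 299.7 at 6 h (-2.47 ± 0.24), and Hgf, hepatocyte growth factor, fell (-2.51 ± 0.43).

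Genes of the endoplasmic reticulum stress response rose more often than they fell. Unfolded protein response genes rose for 19 and fell for 1 of 30, with a median of 0.51 (0.67 after GC correction). Pdia4, a protein disulfide isomerase, had 1440.2, 1389 and 1422 at 36 h, against 407, 398 and 427 at 6 h (1.78 ± 0.10, adjusted p = 4.35e-09), and Sdf2l1, a chaperone cofactor, had 395, 349 and 571 at 36 h, against 134, 123 and 123 at 6 h (1.75 ± 0.19). The libraries of each time agreed closely for Pdia4. The 1 fall, Dnajb9, was -0.51 ± 0.21 (adjusted p = 0.0488), its groups overlapped and its call was lost under 11 alternatives, among them GC correction (adjusted p = 0.234) and the fits without 6 h replicate 1 or 3 (0.16 and 0.142) or 36 h replicate 1 or 2 (0.103 and 0.165).

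Integrated stress response genes rose for 18 and fell for 5 of 34 (3 fell without 6 h replicate 1 or 2 or 36 h replicate 1), with a median of 0.37. The rises included the secreted stress factors Gdf15, with 172, 288 and 211 at 36 h, against 47.2, 74.8 and 42.3 at 6 h (2.03 ± 0.34), and Fgf21, with 24.8, 55.8 and 31.4 at 36 h, against 4.36, 8.25 and 14.1 at 6 h (2.00 ± 0.63, adjusted p = 0.015). The call of Fgf21 was lost without 6 h replicate 1 (adjusted p = 0.0703) or 36 h replicate 2 (adjusted p = 0.0657). Of the falls, Cebpg, a partner of ATF4, had 1687, 1205 and 1295 at 36 h, against 2727, 2258 and 2810.3 at 6 h (-0.91 ± 0.15), and Ppp1r15a had 2471, 2889 and 2917 at 36 h, against 4917, 4793 and 3921 at 6 h (-0.72 ± 0.17). Atf4 itself, named after its values were seen, fell (-0.44 ± 0.11, adjusted p = 0.004).

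Heat shock and chaperone genes fell for 14 and rose for 3 of 35, with a median of -0.27, and GC correction gave 7 rises and 15 falls. Hspa1b, the inducible Hsp70, had 274, 631 and 422 at 36 h, against 1003, 1165 and 1065 at 6 h (-1.36 ± 0.31), and its cofactor Dnaja1 had 2429, 2062 and 2594 at 36 h, against 5636, 5081 and 6809 at 6 h (-1.30 ± 0.17). Hspb1, the small heat shock protein Hsp27, had 1889.8, 1864 and 2508 at 36 h, against 1193, 1249 and 1051 at 6 h (0.83 ± 0.15), a rise whose call was lost after GC correction (adjusted p = 0.179). Hspa2 rose by 0.76 ± 0.14. Oxidative stress genes divided into 7 rises and 11 falls among 31, a share of rises near the 25.3% of all tested genes. Sod3, the extracellular superoxide dismutase, had 799.9, 716 and 681 at 36 h, against 145, 132 and 119.9 at 6 h. Hmox1, haem oxygenase 1, had 1395, 1687 and 1104 at 36 h, against 4584, 4022 and 2799.7 at 6 h. Prdx1, a peroxiredoxin, rose by 1.27 ± 0.21, and Mt3, a brain metallothionein, fell (-1.50 ± 0.18).

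p53 target and apoptosis genes rose for 17 and fell for 5 of 37, with a median of 0.49, and 9 fell after GC correction. Hrk, a BH3-only death protein of neurons, had 59.3, 41.9 and 95.1 at 36 h, against 14.5, 13.7 and 7.05 at 6 h (2.36 ± 0.49), and Phlda3, a p53 target that restrains Akt, had 1532, 2151 and 1794 at 36 h, against 425, 395 and 391 at 6 h (2.16 ± 0.18). The BH3 protein gene Bid fell (-0.68 ± 0.15), as did the caspase inhibitor gene Xiap (-0.68 ± 0.16).

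Oxidative phosphorylation genes fell for 18 and rose for 1 of 75, a share of falls near the 25.3% of all genes, with a median of -0.28, and 10 fell without 6 h replicate 3. Ndufb3, a complex I subunit, had 183, 208 and 188 at 36 h, against 319, 336 and 469 at 6 h (-0.93 ± 0.22). Ndufc1, of the same complex, fell (-1.33 ± 0.37), a call lost without 6 h replicate 3 (adjusted p = 0.051), and the 1 rise was Sdhc, of complex II, by 0.44 ± 0.12. Glycolysis and hypoxia genes fell for 14 and rose for 8 of 38, with 5 rises without 6 h replicate 1 or 3. The lactate exporter Slc16a3 had 133, 132 and 264 at 36 h, against 18.2, 16.5 and 14.1 at 6 h (3.29 ± 0.31), and the glucose transporter Slc2a1 had 2728, 2779 and 3219.8 at 36 h, against 1235, 1317 and 1033 at 6 h (1.29 ± 0.12). The hypoxia-induced Bnip3 had 666, 644 and 713 at 36 h, against 2172, 1893 and 2581 at 6 h (-1.70 ± 0.16), and Higd1a fell (-1.73 ± 0.17).

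Cholesterol and fatty acid synthesis genes fell for 15 and rose for 7 of 37, with a median of -0.30. Their regulator Srebf1 rose, with 1197, 1429.7 and 1386 at 36 h, against 270.1, 349.6 and 254 at 6 h (2.21 ± 0.21), as did the fatty acid desaturase Fads2, by 1.85 ± 0.23. The enzyme Idi1 of the sterol pathway had 1169, 814 and 992 at 36 h, against 3053, 2265 and 3262 at 6 h (-1.53 ± 0.20), and the sterol carrier Stard4 had 344, 296 and 301 at 36 h, against 925, 871 and 1142 at 6 h (-1.63 ± 0.15).

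Cytosolic ribosomal protein genes rose for 38 and fell for 3 of 80, with a median of 0.63 (0.48 after GC correction). These genes have many processed copies, and their single values are uncertain. Rpl36 had 45.3, 88.4 and 52.6 at 36 h, against 6.53, 23.6 and 14.1 at 6 h (2.10 ± 0.64), with its call lost after GC correction (adjusted p = 0.0549) and without 6 h replicate 1 (0.0685) or 36 h replicate 2 (0.057), and Rps12 rose by 2.05 ± 0.63, lost without 6 h replicate 1 (0.0791). Rpl15 had 1131, 954 and 973 at 36 h, against 1727, 1516 and 1968 at 6 h (-0.76 ± 0.14), and Rpl22 fell (-0.61 ± 0.11). Ribosome biogenesis genes rose for 7 and fell for 8 of 38 (4 and 5 after GC correction, 4 and 3 without 6 h replicate 1). Among them the processing factor gene Rrp12 rose by 1.03 ± 0.18 and Nop10 fell (-0.62 ± 0.13). The rise of Imp3 (0.61 ± 0.15) and the fall of Dkc1 (-0.61 ± 0.20) lost their calls after GC correction (adjusted p = 0.138 and 0.0548), and Dkc1 also without 6 h replicate 1 (0.0642) or 36 h replicate 3 (0.0761).

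Proteasome subunit genes rose for 8 and fell for 2 of 32, with a median of 0.07, a share of rises near the 25.3% of all tested genes. The rises numbered 4 without 6 h replicate 1 or 36 h replicate 3, and were led by Psmd3 at 1.01 ± 0.22 and Psmd8 at 0.72 ± 0.12. Both falls, Psma3 (-0.86 ± 0.26) and Psmb1 (-0.43 ± 0.15), were lost when single libraries were left out: Psma3 without 36 h replicate 2 or 3 (adjusted p = 0.0644 and 0.0532), and Psmb1 without 6 h replicate 2 or 3 (0.0635 and 0.0929) or 36 h replicate 2 (0.0925). Lysosome and autophagy genes rose for 19 and fell for 13 of 47, with a median of 0.29. Wipi1, an autophagosome protein, had 164, 89.9 and 176 at 36 h, against 27.6, 30.2 and 28.2 at 6 h (2.22 ± 0.28), and Gabarapl2, of the autophagosome membrane, had 908, 853 and 889.9 at 36 h, against 2101, 1706 and 2200.3 at 6 h (-1.17 ± 0.14). Atg5 fell (-0.94 ± 0.14). The cathepsin Ctsh rose by 2.14 ± 0.76 (adjusted p = 0.0274), a call lost without 6 h replicate 3 (0.106) or 36 h replicate 1 or 2 (0.0749 and 0.0642).

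Cell cycle and replication genes rose for 24 and fell for 2 of 43, with a median of 0.80 (1.03 after GC correction). Top2a, the topoisomerase of dividing cells, had 60.4, 63.6 and 117 at 36 h, against 5.08, 6.05 and 3.53 at 6 h (3.75 ± 0.50), and Rrm2, a ribonucleotide reductase subunit, had 71.1, 97.7 and 135 at 36 h, against 13.1, 14.8 and 14.1 at 6 h (2.72 ± 0.34). Top2a stayed low in all 6 libraries, with at most 117.2. The summed level of the list was 16269 to 16484.5 at 36 h, against 5179 to 5736 at 6 h. Of 50 listed genes, 43 were tested. Cdk1, Aurkb, Bub1, Cdc20, Cenpa, Ube2c and Ndc80 were too low to enter the test. The kinesin Kif11 moved the other way, with 21.6, 45.0 and 33.2 at 36 h, against 166, 189.6 and 243 at 6 h (-2.59 ± 0.34), and Kif23 fell (-1.23 ± 0.48, adjusted p = 0.0453), a call lost under 8 alternatives, among them GC correction (adjusted p = 0.0608) and the fits without 6 h replicate 2 or 3 (0.118 and 0.12) or 36 h replicate 1 or 2 (0.158 and 0.0621). The endothelial, macrophage and immature Schwann cell markers given above, of cells that can divide, rose for 15 of 16, 9 of 14 and 9 of 13 genes over the same interval, and their part was not tested.

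Interferon response and antigen presentation genes rose for 21 and fell for 4 of 40 (2 fell without 6 h replicate 1, 6 h replicate 3 or 36 h replicate 2), with a median of 0.44. Ifitm3, an interferon-induced membrane protein, had 3395, 3241 and 3209 at 36 h, against 1192, 1036 and 1001 at 6 h (1.61 ± 0.11), and Bst2, tetherin, had 291, 305 and 353 at 36 h, against 60.3, 108 and 52.9 at 6 h (2.15 ± 0.32). Mx1, an antiviral GTPase, had 43.1, 107 and 49.8 at 36 h, against 160.5, 137 and 145 at 6 h (-1.25 ± 0.28), and Gbp2 fell (-0.97 ± 0.16). Cytokine and chemokine genes rose for 13 and fell for 10 of 38, with a median of 0.00. Il11, a cytokine of the interleukin 6 family, had 290.0, 326 and 328 at 36 h, against 71.2, 53.9 and 35.3 at 6 h (2.59 ± 0.22), and the acute-phase gene Saa3 rose by 3.73 ± 0.61 from values under 5. The chemokine Ccl7 had 132, 100.8 and 113 at 36 h, against 499.5, 363 and 511 at 6 h (-1.98 ± 0.21), and Ccl4 fell (-2.09 ± 0.28). Among the macrophage markers themselves, Csf1r had 108, 122 and 91.4 at 36 h, against 29.8, 28.0 and 21.2 at 6 h (1.99 ± 0.28) and Emr1, the F4/80 antigen, 105, 118 and 59.1 at 36 h, against 13.1, 24.2 and 31.7 at 6 h (2.01 ± 0.37), while the mannose receptor Mrc1 fell (-2.01 ± 0.60).

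The 12 h and 24 h libraries showed how the difference built up, without a test of the single steps. Of the 3794 genes that rose, 2557 (67.4%) had means in rising order over all 4 times, and of the 3795 that fell, 2734 (72%) had means in falling order. The median gene that rose had 39.6% of its log2 change by 12 h and 73.5% by 24 h, and the median gene that fell had 30.7% and 71.1%. Sprr1a averaged 29.8 at 6 h, 247 at 12 h, 1611 at 24 h and 2979 at 36 h. Mrgprd averaged 3765 at 6 h, 1869 at 12 h, 217 at 24 h and 49.98 at 36 h, and Fosb 2083 at 6 h, 952 at 12 h, 146 at 24 h and 43.9 at 36 h. These genes thus moved in 1 direction at every step.

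Other genes had a different course. Top2a averaged 4.89 at 6 h, 8.58 at 12 h, 11.9 at 24 h and 80.4 at 36 h, so that most of its rise came after 24 h. Nefm averaged 64702 at 6 h, 64789.8 at 12 h, 44103 at 24 h and 37183 at 36 h. Its 12 h mean had an SD of 18234.5, so its course before 12 h is uncertain. On log2(mean + 1), the median of the nociceptor and itch receptor list against 6 h was -0.62 at 12 h, -1.58 at 24 h and -2.18 at 36 h, whereas that of the interferon list was 0.40 at 12 h, 0.52 at 24 h and 0.43 at 36 h. Unfolded protein response genes had a median of 0.06 at 12 h, 0.47 at 24 h and 0.51 at 36 h, and the cell cycle list 0.22, 0.22 and 0.71. Deviations at 12 h correlated with GC content from -0.556 to 0.413, so the 12 h means are the least even in this respect.

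**Figure D4:**
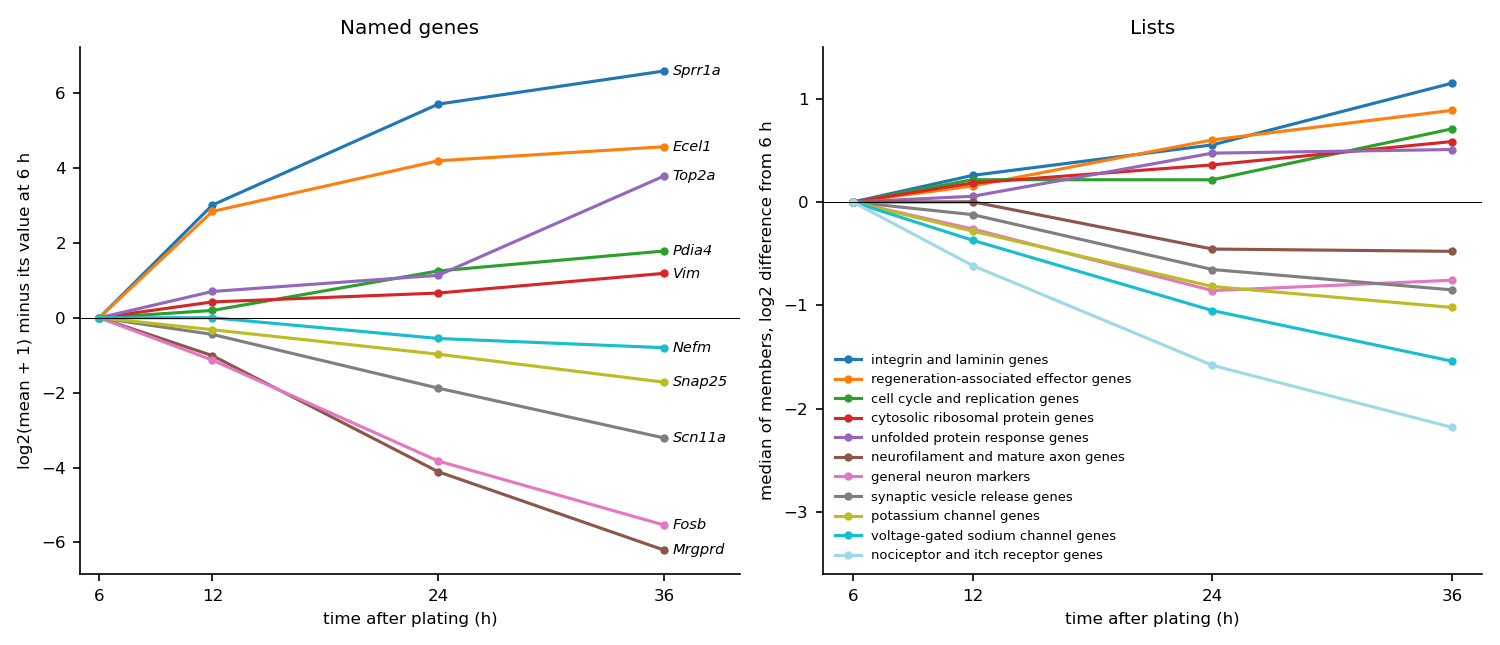
Left, log2(mean + 1) of 10 genes minus its value at 6 h, against hours after plating. Right, the median difference from 6 h on the same scale over the members of 11 lists at 12, 24 and 36 h, with nociceptor and itch receptor genes lowest at -2.18 and integrin and laminin genes highest at 1.15.

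To see where the course in the dish differed from the response to a peripheral lesion in the animal, the change from 36 h minus 6 h was compared with the change from lesion minus sham in 1 fit of the 12 libraries of these groups, which share no library. The labels do not give the interval between lesion and collection, and whether the operated ganglia were sorted is not stated, so culture, sorting and time cannot be told apart in this contrast. Of 15224 genes tested, 5849 (38.4%) had a different change, 2497 (16.4%) with a higher change in culture and 3352 (22%) with a lower one. Both changes had calls in common. Of the genes tested in both, lesion ganglia were higher than sham ganglia for 2957 (20.8%) and lower for 2924 (20.6%). Among 3628 genes that rose in culture, 1490 (41.1%) were also higher after lesion and 126 (3.47%) lower. Among 3676 that fell in culture, 310 (8.43%) were higher after lesion and 1696 (46.1%) lower. Seen from the lesion, 50.4% of its rises rose in culture and 58% of its falls fell. Over all genes tested in both, 40% passed the test of the difference itself. The share was 58.7% for genes that rose in culture and 69.2% for those that fell. Both tests contain the same difference between 36 h and 6 h, so the choice of genes alone raises these shares. No conclusion is drawn from them.

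The leading regeneration genes rose in both settings. Sprr1a had 23731, 14642 and 19037 after lesion, against 409, 355 and 643 after sham surgery, a change of 5.37, and the change in culture was 6.73. The difference between both changes, 1.36 ± 0.54, did not pass the test (adjusted p = 0.0702). Its levels in culture were the lower ones. Sprr1a averaged 29.8 at 6 h against 469 after sham surgery, and 2979 at 36 h against 19137 after lesion. Ecel1 had 1177, 675 and 964 after lesion, against 45.3, 49.0 and 51.0 after sham surgery, and the difference was 0.33 ± 0.27 (adjusted p = 0.354). For Sez6l it was 0.35 ± 0.26 (adjusted p = 0.318). Cckbr rose less in culture, with 998, 665 and 808 after lesion, against 34.4, 33.6 and 33.3 after sham surgery and a difference of -0.97 ± 0.25 (adjusted p = 0.00468).

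Other injury genes had a lower change in culture than after lesion. The culture change starts from dissociated cells at 6 h, and the lesion change from sham ganglia. A lower change thus need not mean a lower level. Atf3 averaged 8231 at 36 h and 10153 at 6 h, and had 11051, 7089 and 9482 after lesion, against 524, 566 and 579.8 after sham surgery, so that the changes differed by -4.33 ± 0.17 (adjusted p = 2.39e-11). Sox11, with 2687, 1588 and 2160.1 after lesion, against 290.3, 238 and 318 after sham surgery, differed by -2.64 ± 0.23, Gap43 by -1.56 ± 0.15 and Jun by -0.92 ± 0.19. The 6 h cultures thus stood nearer to the level of lesion ganglia than to that of sham ganglia for Atf3. For Sox11, the averages at 6 h and 36 h given above lay over every lesion value. Over the lists, a lower change in culture was found for 21 of 45 regeneration effectors and 14 of 28 AP-1 and immediate early genes, and a higher change for 5 and 2. Of all tested genes, 22% had a lower and 16.4% a higher change in culture.

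Many receptor, channel and release genes had a lower change in culture than after lesion. Mrgprd had 1781, 3054 and 2393 after lesion, against 4318, 4372 and 4369 after sham surgery, a change of -0.89, and the change in culture minus this change was -5.35 ± 0.29 (adjusted p = 1.24e-08). The corresponding value was -1.63 ± 0.23 for Trpv1. For Fosb, of the AP-1 and immediate early list, it was -5.83 ± 0.35. Fosb had 18.6, 18.4 and 15.6 after lesion, against 12.8, 11.0 and 21.2 after sham surgery. It averaged 2083 at 6 h and 43.9 at 36 h, so both culture means lay above those of the lesion and sham ganglia. The culture change was lower for 24 of 39 nociceptor and itch receptor genes, 12 of 15 sodium channel genes, 37 of 69 potassium channel genes and 32 of 48 synaptic release genes, against 22% of all tested genes, and higher for 3, 0, 4 and 2. For the neuropeptide gene Calca the difference, -0.14 ± 0.16, did not pass the test (adjusted p = 0.539). General neuron markers had a lower culture change for 11 of 15 genes and endothelial markers a higher one for 12 of 16, so composition moved with this contrast too, and its part was not tested.

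Genes with a higher change in culture included Hmga2, with 15.5, 5.01 and 1.73 after lesion, against 3.94, 2.92 and 1.72 after sham surgery and a difference of 3.56 ± 0.65 (adjusted p = 0.000397), Plvap (3.56 ± 0.24) and Pdia4 (2.05 ± 0.14). The functional lists with the highest shares of such genes, against 16.4% of all tested genes, were unfolded protein response genes with 17 of 30, integrin and laminin genes with 17 of 30, cytosolic ribosomal protein genes with 43 of 80, interferon genes with 19 of 40 and lysosome and autophagy genes with 20 of 47. Cell cycle genes followed with 17 of 45, tubulins with 6 of 16 and guidance genes with 22 of 59. A lower change was found for 1, 3, 2, 2 and 9 genes of the first 5 of these lists, and for 1 cell cycle gene, 0 tubulins and 16 guidance genes.

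**Figure D5:**
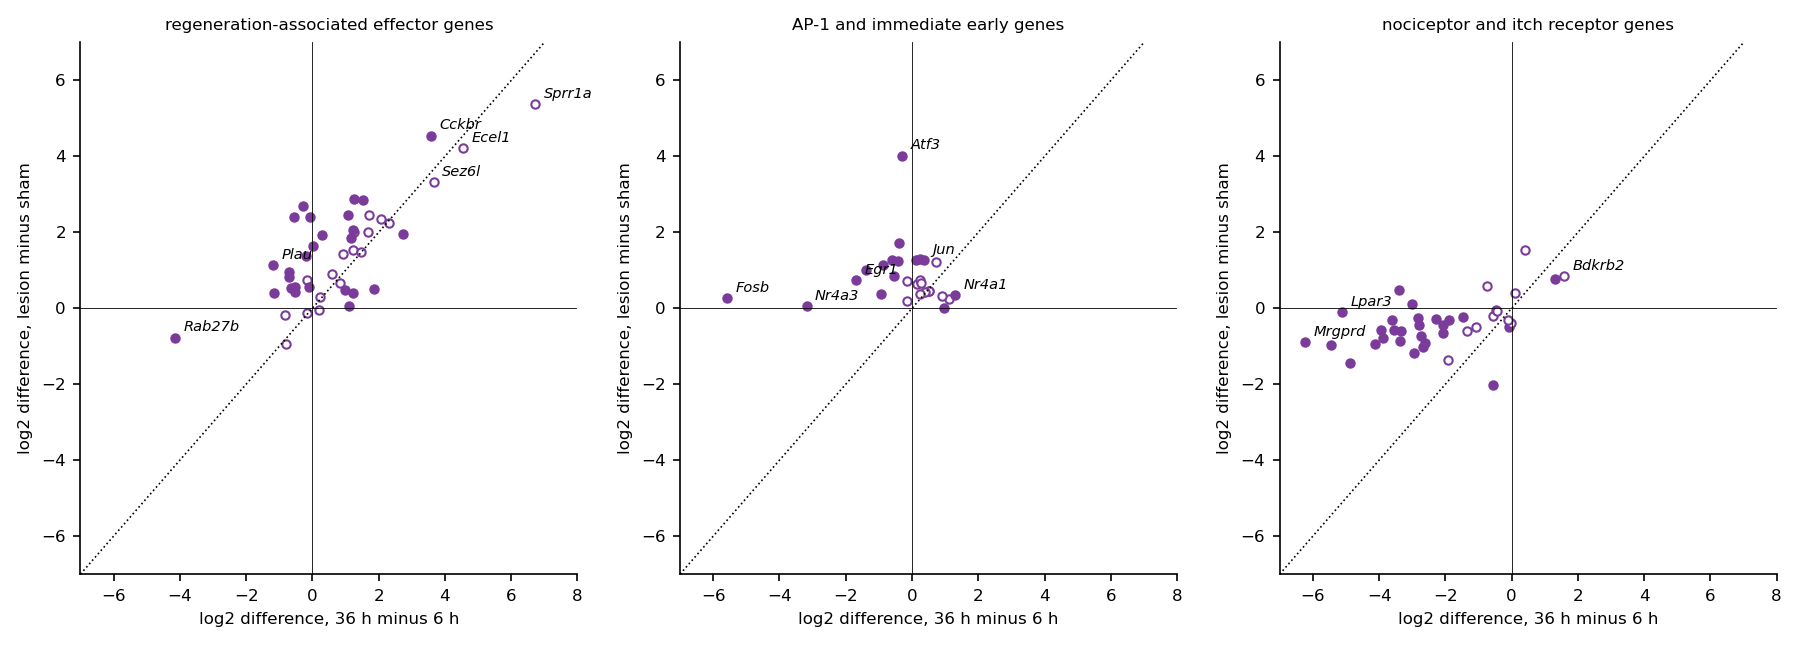
Log2 difference between lesion and sham ganglia (up) against the log2 difference between 36 h and 6 h cultures (across) for the genes of 3 lists, 1 point per gene. Filled points differ between both changes at an adjusted p below 0.05, open points do not, and the dotted line marks equal changes. In the panel of AP-1 genes Atf3 lies high with 4.02 after lesion and -0.30 in culture, and in the panel of nociceptor genes Mrgprd lies far left with -6.23 in culture.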

How the data were processed

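The deposited table holds 1 value per gene and library. The values are a signal of normalized read counts: in each of the 24 libraries the deposited values were whole multiples of 1 factor, and 100% of those checked came out as whole reads (tolerance 0.1, up to 1000 reads). The submitters' processing notes name TopHat and the mouse build mm10. Counting tool, annotation and the origin of the factors: not given in the sources used here. TruSeq V2 kits were used on 10 ng of RNA, per the labels' protocols. Every value column matched a sample, and columns without one numbered 0.

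The main test was limma (version 3.58.1, R version 4.3.3) on log2 of the value plus 1, with a trended and robust spread estimated over the 12 culture libraries and the contrast of 36 h and 6 h. Genes with a value of 10 or more in 3 or more of these libraries entered, and p-values were adjusted over all of them (Benjamini-Hochberg, 0.05). The pseudocount understates fold changes of low genes. A second fit of 12 libraries compared this change with that between lesion and sham ganglia. edgeR 4.0.16 and DESeq2 1.42.0 on the recovered reads were alternatives, with 7820 and 7869 genes called, as were other pseudocounts, filters and scalings, single libraries left out and, added after seeing the data, a loess correction for transcript GC content (GENCODE M21, span 0.3). The fits were tested on simulated data.

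The comparison, the gene lists and the markers were chosen with earlier results of these data known, and lists are described by counts and medians beside those of all genes. Named genes were the 15 largest called rises and falls without overlap and with a higher mean of at least 100, uncharacterised symbols left out, the 6 largest gains and losses in mean value, and the 2 largest called rises and falls of each list. Promoter windows came from a RefSeq table (GRCm38.p6). Python 3.11.15 and matplotlib 3.10.9 were used for figures. A few genes that these choices reach are not reported here.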

Additional observations from a re-analysis of the deposited data

How the results depend on the processing

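The number of genes called ranged from 6506 to 8383 over all alternatives, against 7589, and when single libraries were left out from 6506 to 7055, with 3225 to 3531 higher and 3281 to 3605 lower. For the difference between the culture and the lesion change it ranged from 4841 to 6037, against 5849. Each of these counts stayed within 1.5 times its value above. Of 192 named genes, 165 were called under every alternative that gave a value, 27 were lost under at least 1, and 0 reversed. Of 90 list counts, GC correction moved 13 by over 1.5 times, and it moved 24 of 45 list medians by more than the spread of the library medians, while 43 of the 45 kept their sign. The exceptions were AP-1 and immediate early genes (0.16, or -0.24 corrected) and ribosome biogenesis genes (0.13, or -0.02 corrected); the cause was not tested. No paired analysis was possible because the labels of these groups carry no shared replicate numbers. 6 h replicate 3, with 3648071 reads, limits what can be seen of low genes, and leaving it out gave the fewest calls.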
